A study of Mus musculus with 16 samples.

Results

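*Upb1* and 4 genes beside it on mouse chromosome 10, *Specc1l*, *Adora2a*, *Gucd1* and *Snrpd3*, were examined in the vomeronasal organ (VNO) of mouse lines bred for voluntary wheel running and of unselected lines. These 5 genes, of 24407 with counts in both sexes, were chosen by their position beside each other and by the level of *Upb1*, which differed between the lines in an earlier look at the same data. The difference of *Upb1* between High Runner (HR) and Control lines and its state in each line therefore chose the genes and are given as a description without a test. All 5 genes passed the filter on low counts, *Upb1* through its counts in HR lines 6, 7 and 8.

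*Upb1* encodes beta-ureidopropionase, the last enzyme in the breakdown of the pyrimidines uracil and thymine. It releases beta-alanine from the uracil branch and beta-aminoisobutyrate from the thymine branch, and is best known from liver and kidney. Its neighbours have other roles. *Adora2a* encodes an adenosine receptor that couples to stimulatory G proteins. *Snrpd3* encodes SmD3, a subunit of the Sm ring at the core of spliceosomal ribonucleoproteins. *Specc1l* encodes a protein that binds actin and microtubules. *Gucd1* encodes a protein with a guanylyl cyclase domain.

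RNA was prepared from the VNO of mice of Hsd:ICR background at 12 weeks of age, from generation 88. Lines 3, 6, 7 and 8 were HR and lines 1, 2, 4 and 5 were Control, and both linetypes descend from the same outbred base. Each line gave 1 male and 1 female library, 16 libraries in all. Each library was a pool of the VNOs of 3 mice, so differences between individual mice cannot be seen and a line has 1 library of each sex. The line is the unit of selection, and values are given as mean ± SD over the 4 lines of a linetype after the male and female library of a line were averaged.

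Counts on genes ranged from 15998552 to 70875276 per library with a median of 37366329, and 16507 genes passed the filter. CPM denotes counts brought to a common library size after edgeR's TMM normalization, and RPKM was used where genes are compared per length. The summed level of 5 marker genes of mature vomeronasal neurons ranged from 2504 to 4705 CPM in Control and from 2983 to 4590 CPM in HR libraries. One of these markers, the channel gene *Trpc2*, was listed at 0 counts in all 16 libraries, as was *Xntrpc*, a gene annotated over it on the same strand, while the other 4 markers carried that sum. This 0 cannot be read as a level of *Trpc2*. The female library of Control line 5 and that of HR line 3 stood apart from the rest. In 858 genes with no transcript of 1000 bases or more, their median log2 deviation from the mean of 16 libraries was -0.45 and -0.35, against -0.04 to 0.18 in the other 14. The female library of Control line 5 also had the lowest depth and the lowest median correlation with the other libraries, 0.951.

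On GRCm38, with the annotation of GENCODE release M21, the genes follow each other in the order *Specc1l*, *Adora2a*, *Upb1*, *Snrpd3*, with *Gucd1* on the other strand. *Specc1l* (ENSMUSG00000033444.14) spans chromosome 10 from 75212073 to 75312743 and *Adora2a* (ENSMUSG00000020178.6) from 75316877 to 75334784, both on the plus strand. *Upb1* (ENSMUSG00000033427.14) spans 75401115 to 75441679 on the plus strand. *Snrpd3* (ENSMUSG00000020180.10) spans 75517551 to 75537381 on the plus strand. *Gucd1* (ENSMUSG00000033416.15) spans 75351111 to 75517972 on the minus strand, so *Upb1* lies inside it. *Upb1* shares 0 exonic bases with any other gene, *Adora2a* and *Specc1l* likewise. *Gucd1* and *Snrpd3* share 232 exonic bases on opposite strands, and *Gucd1* shares another 1066 with *Gm5779*. Reads from these shared stretches may have been counted on either gene or dropped, because the use of strand in counting was not given in the sources used here. Of the words of 75 bases in *Upb1* transcripts, 99.55% occur in no other gene, and 100% do in each of the 4 neighbours.

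The start regions of *Upb1* and *Snrpd3* are shown because the level of one separated HR lines 6, 7 and 8 from the other lines and that of the other did not. Both are RefSeq windows on GRCm38.p6 of 250 bases before and 50 bases after a start, on the plus strand, at chr10:75406661-75406960 for *Upb1* and chr10:75517792-75518091 for *Snrpd3*. Capitals mark each CG dinucleotide.
Upb1: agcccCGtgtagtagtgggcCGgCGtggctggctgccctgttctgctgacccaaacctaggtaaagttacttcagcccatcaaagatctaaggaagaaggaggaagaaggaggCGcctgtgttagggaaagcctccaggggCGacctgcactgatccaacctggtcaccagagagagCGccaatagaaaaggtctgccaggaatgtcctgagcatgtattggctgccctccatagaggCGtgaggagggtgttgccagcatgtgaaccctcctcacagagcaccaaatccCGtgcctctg
Snrpd3: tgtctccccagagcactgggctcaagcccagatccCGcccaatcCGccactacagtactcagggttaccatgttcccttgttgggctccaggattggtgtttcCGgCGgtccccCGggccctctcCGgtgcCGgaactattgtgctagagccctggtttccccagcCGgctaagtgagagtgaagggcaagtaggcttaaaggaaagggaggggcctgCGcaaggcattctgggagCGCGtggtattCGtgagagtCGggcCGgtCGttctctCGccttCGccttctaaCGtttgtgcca
The *Upb1* window holds 8 CG dinucleotides, and 54.2% of 32851 promoter windows of this length hold as few. The *Snrpd3* window holds 18, a number that 71.9% of windows do not exceed. It shares 169 bases with a window of *Gucd1*, which is transcribed the other way. The letters CCAAT, searched on both strands, occur 2 times in the *Upb1* window and 2 times in that of *Snrpd3*, and 37.4% of all windows hold them. TATAAA, which 13.6% of windows hold, is in neither window. GGGCGG, which 35.7% hold, is absent from the *Upb1* window and occurs once in that of *Snrpd3*. These are matches of letters in 1 window and carry nothing about binding.

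The level of *Upb1* fell into separate ranges by line. In HR line 6 the female library had 17.2 CPM and the male library 15.1 CPM. HR line 7 had 14.7 CPM in the female and 13.0 CPM in the male library. HR line 8 had 4.71 CPM in the female and 10.3 CPM in the male library. These 6 libraries held between 175 and 700 counts of *Upb1* each. HR line 3 did not share their range, with 0.220 CPM from 6 counts in the female and 0.307 CPM from 13 counts in the male library.

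The Control libraries were at the level of a few reads. Control line 1 had 0.125 CPM in the female and 0.0283 CPM in the male library, from 9 and 2 counts. Control line 2 had 0.103 and 0.0746 CPM, from 2 and 4 counts, and Control line 4 had 0.177 and 0.132 CPM, from 7 and 5 counts. Control line 5 had 0.0638 CPM from 1 count in the female and 0.197 CPM from 5 counts in the male library. No library had a count of 0. The libraries of HR lines 6, 7 and 8 did not overlap with any other, and the lowest of them was 15.3-fold above the highest of the other 10 libraries.

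**Figure D1:**
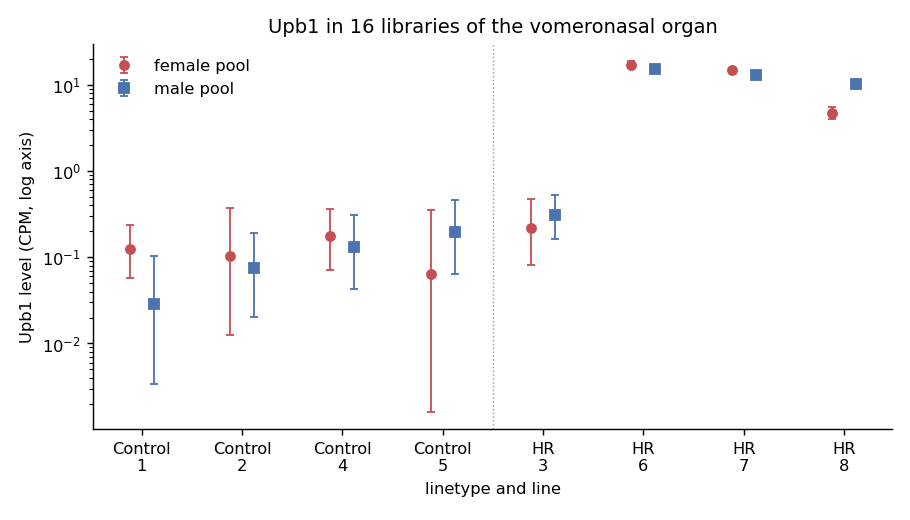
Level of *Upb1* in CPM on a log axis (vertical) for each line (horizontal), with circles for female and squares for male pools and bars for exact 95% Poisson intervals of the counts. The 6 libraries of HR lines 6, 7 and 8 sit between 4.71 and 17.2 CPM, and the other 10 between 0.0283 and 0.307 CPM.

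With the counts of both libraries of a line summed, *Upb1* was 154-fold higher in HR line 6 than in the 8 Control libraries, with a 95% interval of 110 to 223. It was 133-fold higher in HR line 7 (95.2 to 192) and 72.2-fold higher in HR line 8 (51.3 to 105). Set against HR line 3, these lines were 59.2-fold (37.7 to 98.7), 51.0-fold (32.5 to 85.0) and 27.7-fold (17.6 to 46.3) higher. Line 3 was the HR line nearest to Control. Its 19 counts gave 0.273 CPM against 0.105 CPM from 35 counts in Control, a ratio of 2.61 with an interval of 1.41 to 4.69. These are exact intervals on reads, they cover counting error only, and they compare libraries rather than linetypes. Single Control libraries ran from 0.0283 to 0.197 CPM, below both libraries of line 3, at 0.220 and 0.307 CPM. The values of line 3 rest on 6 and 13 counts in 1 line, so its ratio does not by itself show a difference from Control lines.

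Over lines, *Upb1* was at 9.45 ± 7.13 CPM in HR and 0.113 ± 0.0361 CPM in Control (SD, n = 4 lines each). The log2 fold change fitted over the 16 libraries was 6.40 with a standard error of 0.87 and a 95% interval of 4.55 to 8.25. That fit, also used for the genes below, takes the libraries of a line as independent. With the libraries of a line summed, 4 lines against 4, it was 6.40 with a standard error of 1.13 and an interval of 3.82 to 8.98. It stands for an average of 3 lines far above Control and 1 line near it. Line means of HR and Control did not overlap, since line 3 was at 0.264 CPM and the highest Control line at 0.154 CPM. Such a separation was found in 0.8% of all genes tested, and an adjusted *p* under 0.05 by edgeR's quasi-likelihood test in 0.0242%. *Upb1* was chosen by this contrast, so nothing is read from either share. For the same reason the intervals of its fold change describe the fits and are not a test against 0.

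Per length and among all genes, *Upb1* was a gene of middle rank in 3 lines. Its RPKM was 1.72 to 6.11 in the libraries of HR lines 6, 7 and 8, above the RPKM of 48.8% to 61.0% of genes. In the other 10 libraries RPKM ran from 0 to 0.0837, above 0% to 31.5% of genes. The female library of Control line 5 was listed at an RPKM of 0 although its count was 1. The RPKM of the sexes come from separately normalized tables.

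The female and the male pool of a line carried *Upb1* at similar levels in HR lines 6 and 7, with female to male ratios of 1.14 (95% interval 1.01 to 1.29) and 1.14 (1.01 to 1.27). In HR line 8 the female pool had 0.457 times the level of the male pool (0.381 to 0.548). In HR line 3 the ratio was 0.717 (0.224 to 2.02). The intervals cover counting error only, and a pool of 3 mice gives no spread between animals. In bulk tissue, more cells with *Upb1* RNA and more of it per cell cannot be told apart.

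The rule did not use sex, so it could be tested. None of the 5 genes was called between female and male libraries by edgeR's test, in which 0.188% of all genes had an adjusted *p* under 0.05. DESeq2 called 0 of the 5 as well, and 0 of the 4 neighbours had an unadjusted *p* under 0.05, as 8.08% of all genes did. The female minus male log2 difference of *Upb1* was 0.07 (standard error 0.73, adjusted *p* = 0.996 by edgeR). That fit had no term for line, so the spread of *Upb1* among HR lines entered its error. Its lack of a call therefore cannot decide whether *Upb1* differed by sex. With line as a replicate block the difference of *Upb1* was -0.11 (standard error 0.26, adjusted *p* = 0.865 by edgeR). Both values are averages over lines, and single lines went either way. The female to male ratio was 1.14 in HR lines 6 and 7 and 0.457 in HR line 8. For the neighbours the log2 differences ran from -0.14 in *Snrpd3* (standard error 0.20) to 0.08 in *Adora2a* (standard error 0.27). The sexes may have been sequenced in separate runs, and then sex and run cannot be told apart. The test of an interaction of sex and linetype called 0 of the 5 genes by edgeR, and 0 of all genes tested. For *Upb1* this cannot decide the question. It passed the filter through HR lines 6, 7 and 8, and its Control libraries held 1 to 9 counts each. The interaction of *Upb1* had a log2 value of -0.49 with a standard error of 1.70, so a change in the HR to Control difference between the sexes by several fold was not detectable.

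None of the 4 neighbours separated HR lines 6, 7 and 8 from the other lines as *Upb1* did. Their line means in HR and Control overlapped in each case. Line means without overlap were found in only 0.8% of all genes tested, so overlap is what most genes show. *Upb1* was chosen by its level in these lines, so its own separation is no measure for the neighbours. In HR lines 6, 7 and 8 all 4 were at levels also seen in lines with little *Upb1* RNA, with the exception of *Adora2a* in HR line 6, of *Gucd1* in HR line 7 and of *Snrpd3* in HR lines 7 and 8, whose line means exceeded those of the other 5 lines.

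*Specc1l*, upstream of *Upb1* on the same strand, was the steadiest of the 5. Control lines 1, 2, 4 and 5 had 205, 198, 182 and 170 CPM in females and 212, 182, 174 and 191 CPM in males. HR lines 3, 6, 7 and 8 had 183, 188, 192 and 191 CPM in females and 188, 206, 195 and 188 CPM in males. The HR libraries all fell inside the Control range. The means were 191 ± 4.93 CPM in HR and 189 ± 13.8 CPM in Control lines (SD, n = 4 each). The log2 fold change was 0.02 with a 95% interval of -0.09 to 0.12, and its sign turned with scaling by library totals.

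*Adora2a*, the nearest tested gene upstream that does not overlap *Upb1*, was near the limit of the counts, with 5 to 60 reads per library. Control lines 1, 2, 4 and 5 had 0.833, 0.670, 0.860 and 0.319 CPM in females and 0.552, 0.466, 0.816 and 0.512 CPM in males. HR lines 3, 6, 7 and 8 had 0.514, 1.07, 0.695 and 0.511 CPM in females and 0.827, 1.24, 0.462 and 0.414 CPM in males. Both libraries of HR line 6 lay above all others, and HR lines 7 and 8, with *Upb1* RNA too, lay within the Control range. The means were 0.717 ± 0.305 CPM in HR and 0.629 ± 0.180 CPM in Control lines (SD, n = 4 each). The log2 fold change was 0.17 with a 95% interval of -0.40 to 0.74, and without HR line 6 it was -0.15.

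*Gucd1*, whose annotated span surrounds *Upb1* on the other strand, reaches across it in 1 of its 11 transcripts, and another ends within *Upb1*. Control lines 1, 2, 4 and 5 had 23.8, 27.2, 26.8 and 38.1 CPM in females and 27.5, 30.5, 24.3 and 27.5 CPM in males. HR lines 3, 6, 7 and 8 had 36.0, 28.9, 34.0 and 25.3 CPM in females and 26.5, 28.1, 35.6 and 27.9 CPM in males. High values came from both libraries of HR line 7 and from the female libraries of HR line 3 and Control line 5, so the linetypes overlapped. The means were 30.3 ± 3.57 CPM in HR and 28.2 ± 3.42 CPM in Control lines (SD, n = 4 each), and the log2 fold change was 0.10 with a 95% interval of -0.11 to 0.32.

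*Snrpd3*, downstream of *Upb1*, split the libraries in another way than *Upb1* did. Control lines 1, 2, 4 and 5 had 34.7, 36.0, 37.4 and 15.0 CPM in females and 35.7, 41.9, 34.0 and 34.5 CPM in males. HR lines 3, 6, 7 and 8 had 15.8, 38.5, 39.8 and 42.1 CPM in females and 28.5, 33.5, 39.4 and 39.4 CPM in males. The female libraries of Control line 5 and HR line 3 were low, and the other 14 lay between 28.5 and 42.1 CPM. The means were 34.6 ± 8.56 CPM in HR and 33.6 ± 6.16 CPM in Control lines (SD, n = 4 each). The log2 fold change was 0.04 with a 95% interval of -0.38 to 0.46, and was -0.06 in males alone. With the libraries of each line summed, the intervals of the neighbours were -0.15 to 0.16 for *Specc1l*, -0.58 to 0.98 for *Adora2a*, -0.16 to 0.33 for *Gucd1* and -0.42 to 0.43 for *Snrpd3*.

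**Figure D2:**
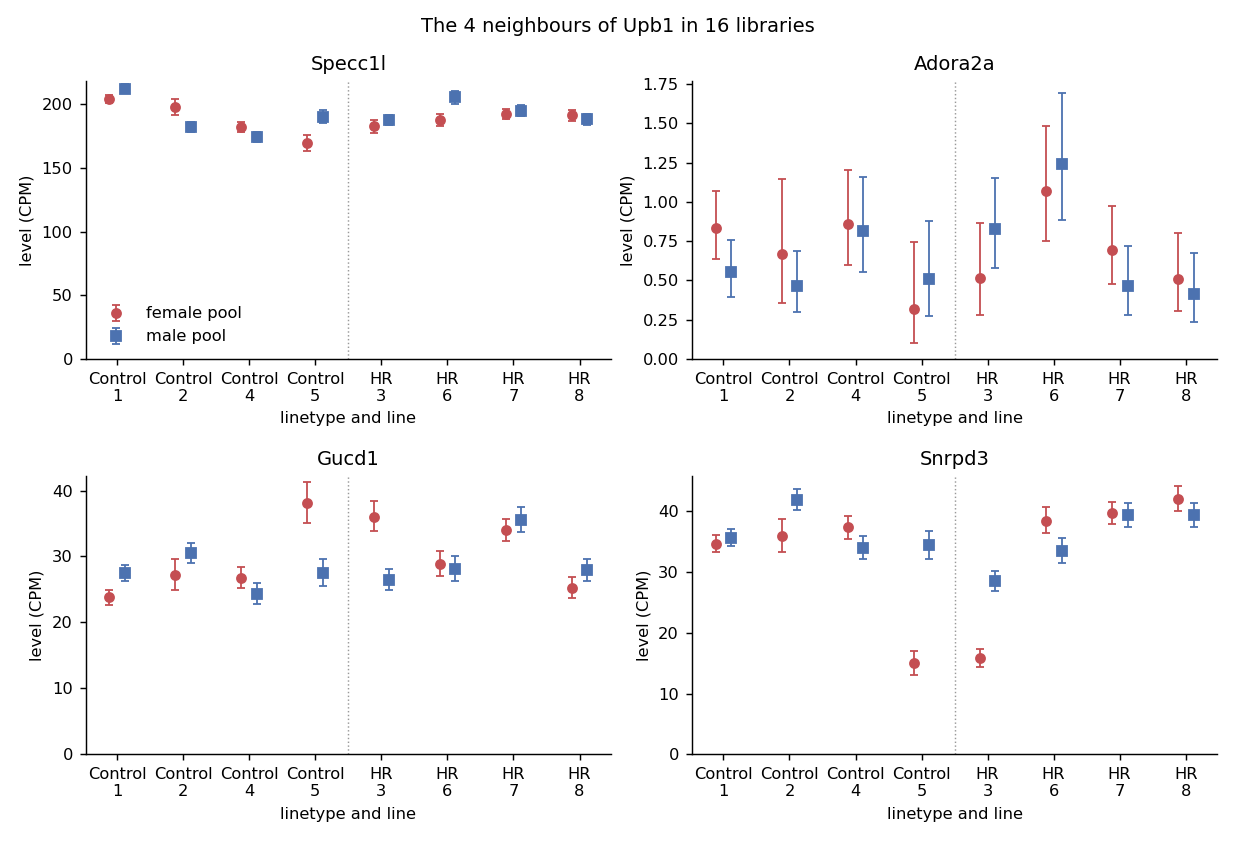
Level in CPM (vertical, from 0) of *Specc1l*, *Adora2a*, *Gucd1* and *Snrpd3* for each line (horizontal), with circles for female and squares for male pools and bars for exact 95% Poisson intervals. *Specc1l* lies between 170 and 212 CPM throughout, *Adora2a* is highest in HR line 6, and *Snrpd3* is low in the female pools of Control line 5 and HR line 3.

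Per length, *Snrpd3* and *Specc1l* were the most abundant of the 5 genes. *Snrpd3* had 31.4 to 108 RPKM, and *Specc1l* had 29.9 to 36.7 RPKM. These ranges touch only through the low female library of Control line 5 and that of HR line 3. *Gucd1* followed with 8.96 to 14.7 RPKM and did not overlap them. *Adora2a*, with 0.142 to 0.517 RPKM, was above *Upb1* in the libraries of Control and of HR line 3 and below it in those of HR lines 6, 7 and 8.

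Whether the neighbours differed among the lines of a linetype was tested against the spread between the male and female library of a line. By edgeR's quasi-likelihood test 0 of 4 had an adjusted *p* under 0.05, while 28.6% of all genes did. *Adora2a* alone had an unadjusted *p* under 0.05, 0.0372 by edgeR. The adjusted *p* was 0.0924 for *Adora2a*, 0.145 for *Snrpd3*, 0.250 for *Gucd1* and 0.294 for *Specc1l* by edgeR. DESeq2, which called 40.4% of the genes it adjusted, called 1 of the 4, *Snrpd3*, with an adjusted *p* of 0.0217. The values of *Snrpd3* behind this include the low female libraries of Control line 5 and HR line 3.

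Those libraries were also low in other genes of the Sm ring and its assembly. *Snrpd2*, *Snrpe* and *Snrpf*, further subunits of the ring, had 7.08, 8.80 and 0.191 CPM in the female library of Control line 5. In the female library of HR line 3 they had 11.7, 5.58 and 0.110 CPM. In the other 14 libraries the lowest values were 22.8, 17.0 and 1.52 CPM. *Snrpb*, another ring subunit, went the other way, with 89.5 and 85.2 CPM against 54.5 to 73.5 CPM elsewhere. Over the 11 listed genes that were tested, the median log2 deviation was -0.35 and -0.37 in these libraries. *Gucd1*, which overlaps the start of *Snrpd3*, deviated by 0.39 and 0.31 there. Genes with short transcripts were low in the same libraries, and the part of transcript length or of the libraries in the *Snrpd3* values was not tested. Without these libraries, the log2 fold change of *Snrpd3* between HR and Control was 0.04 and that of *Gucd1* 0.14.

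**Figure D3:**
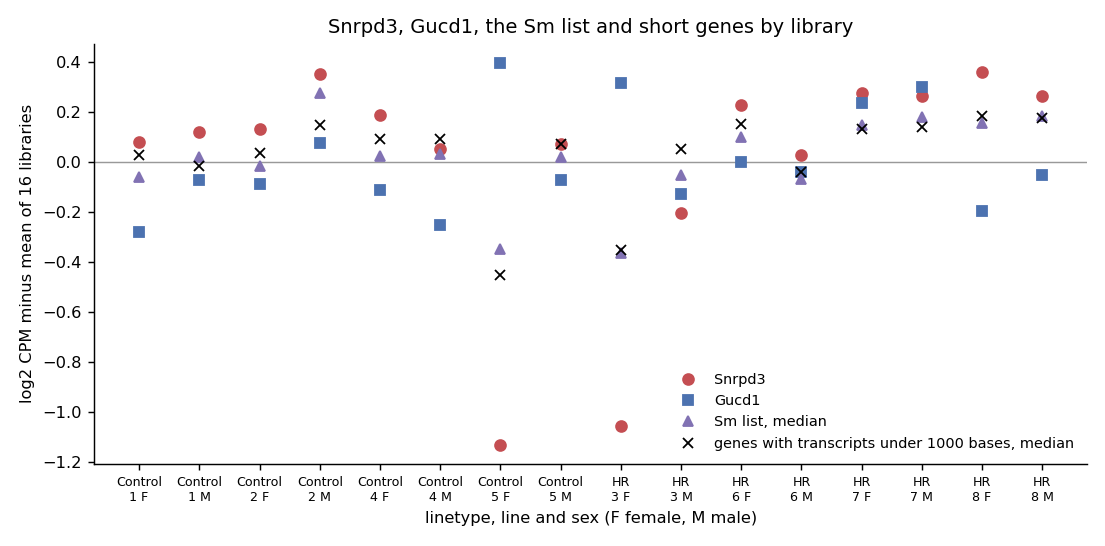
Log2 CPM minus the mean of 16 libraries (vertical) by line and sex (horizontal) for *Snrpd3*, *Gucd1*, the median of the Sm list and the median of 858 genes with transcripts under 1000 bases. In the female libraries of Control line 5 and HR line 3, *Snrpd3* deviates by -1.13 and -1.05, the other medians are below 0, and *Gucd1* is above 0.

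Of the other genes in the region around *Upb1*, the 4 neighbours included, none passed the test between HR and Control lines. Within 1 Mb on either side of *Upb1*, GENCODE lists 60 genes, *Upb1* included, 38 other than *Upb1* were in the count tables and 30 of these were tested. By edgeR's test 0 of 30 had an adjusted *p* under 0.05, against 0.0242% of all genes. An unadjusted *p* under 0.05 was found in 0 of 30 and in 3.3% of all genes. DESeq2 called 0 of them and 30 over all genes. With so few calls over all genes, 0 of 30 does not set the region apart. The median log2 fold change of the 30 was 0.02, against 0.0025 over all genes tested, with 18 values above 0 and 12 below. The 4 neighbours, all above 0, are among the 18. The values ran from -0.53 in *Susd2* to 0.17 in *Adora2a*.

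On the upstream side, the nearest genes tested beside the neighbours were *Bcr*, *Rab36*, *Rsph14*, *Gnaz* and *Pcdh15*. *Bcr* had 88.1 ± 0.857 CPM in HR and 86.3 ± 5.73 CPM in Control lines (SD, n = 4 each). *Rab36*, a small GTPase, had 73.9 ± 3.76 CPM in HR and 69.2 ± 1.86 CPM in Control lines. *Rsph14*, *Gnaz* and *Pcdh15* had log2 fold changes of -0.20, -0.03 and -0.08.

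Downstream of *Snrpd3* came *Lrrc75b*, then *Ggt1* and *Ggt5*, which encode gamma-glutamyl transferases, and *Susd2*, *Cabin1* and *Ddt*. *Ggt1* had 16.3 ± 1.67 CPM in HR and 15.0 ± 1.76 CPM in Control lines, and *Ggt5* had 12.8 ± 2.31 and 12.2 ± 0.839 CPM (SD, n = 4 each). *Susd2* had the lowest log2 fold change of the region, with 7.19 ± 4.02 CPM in HR and 10.3 ± 3.31 CPM in Control lines. *Lrrc75b*, *Cabin1* and *Ddt* had log2 fold changes of 0.09, -0.05 and 0.08. Among lines of a linetype, 6 of the 30 genes differed by edgeR's test, which is 20% against 28.6% of all genes. They were *Pcdh15*, *Susd2*, *Gstt1*, *Derl3*, *Chchd10* and *Prmt2*. DESeq2 called 12, which is 40% against 43.3% of all genes that passed the filter. Without HR line 3, edgeR called 3 of them and 19.6% of all genes. No gene of the region differed between the sexes by edgeR, 5 (16.7%) had an unadjusted *p* under 0.05 against 8.08% of all genes, and DESeq2 called 0.

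**Figure D4:**
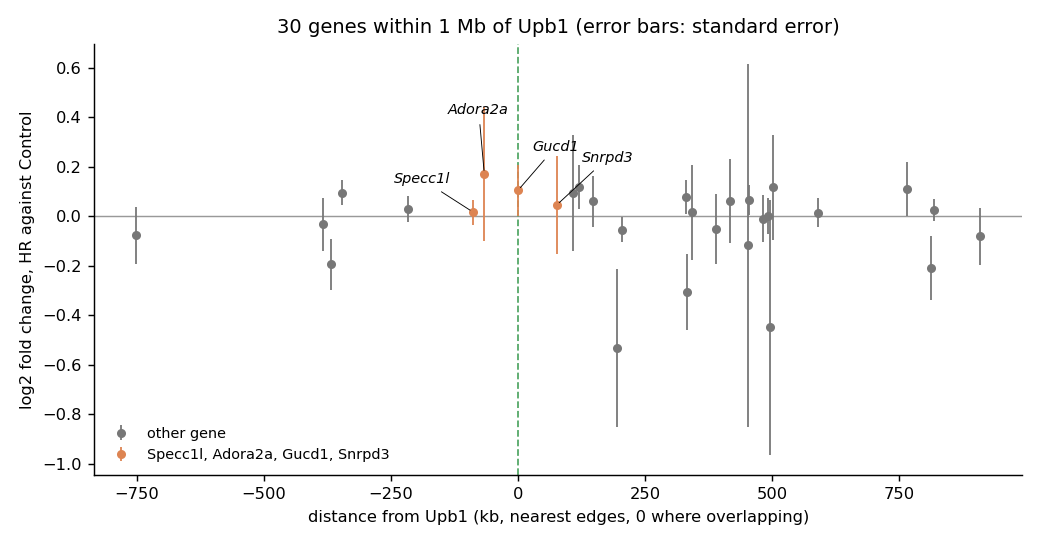
Log2 fold change of HR against Control with its standard error (vertical) for 30 genes by their distance from *Upb1* in kb (horizontal), with the 4 neighbours in orange and *Upb1* itself, at 6.40, left out at the dashed line. The points range from -0.53 to 0.17, and none passed the test.

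Genes that act with *Upb1* were taken from lists of pyrimidine metabolism and of beta-alanine and beta-aminoisobutyrate metabolism. Of 17 genes of pyrimidine metabolism, 17 were tested and 0 differed between HR and Control lines by edgeR's test. That test called 0.0242% of all genes, so a count of 0 does not set a list of this size apart. Over the 17 genes the median log2 fold change was 0.02, from -0.25 to 0.17. *Dpys*, dihydropyrimidinase, which makes the substrates of beta-ureidopropionase, was the most abundant of the list in CPM, with 71.0 ± 23.4 CPM in HR and 81.5 ± 1.97 CPM in Control lines (SD, n = 4 each). Its log2 fold change was -0.19 with a standard error of 0.16. *Dpyd*, which encodes the first enzyme of the route and is named here for that role, had 36.4 ± 3.32 and 36.5 ± 5.30 CPM. The RNA of both upstream enzymes was thus present in HR and in Control lines, including those with little *Upb1* RNA. Its level differed among lines of a linetype for both by edgeR's test, as for 28.6% of all genes. The adjusted *p* was 0.00571 for *Dpys* and 0.0265 for *Dpyd* by edgeR. *Cad*, the enzyme that starts pyrimidine synthesis, had a log2 fold change of 0.05, and *Tk1*, cytosolic thymidine kinase, had -0.23.

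Of 16 genes of beta-alanine and beta-aminoisobutyrate metabolism, 12 were tested. By edgeR's test 0 of the 12 differed between HR and Control lines, against 0.0242% of all genes. The median log2 fold change of the 12 was 0.04. *Agxt2*, *Agxt*, *Cndp1* and *Mrgprd* had too few counts. *Slc6a6*, a transporter of taurine and beta-alanine, had 330 ± 45.0 CPM in HR and 374 ± 27.4 CPM in Control lines (SD, n = 4 each), a log2 fold change of -0.19. *Carns1*, which joins beta-alanine and histidine into carnosine, had 176 ± 48.1 and 169 ± 27.4 CPM. *Cndp2*, a dipeptidase, had a log2 fold change of 0.09. Among lines of a linetype, 3 of the 17 genes of pyrimidine metabolism and 7 of the 12 genes of this list differed by edgeR's test, against 28.6% of all genes.

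Genes that act with the neighbours were listed too. Of 12 genes of the Sm ring and its assembly 11 were tested, of 16 genes of adenosine signalling 14, and of 9 cytoskeleton and junction genes 9. None differed between HR and Control lines by edgeR's test, which called 0.0242% of all genes. *Snrpb* and *Clns1a*, a subunit of the complex that prepares Sm proteins for assembly, had log2 fold changes of 0.01 and 0.08. In the adenosine list 13 of 14 values were below 0, with a median of -0.14, against 48.9% of all genes tested with a value below 0. The value of *Adora2a* itself was 0.17, and -0.15 without HR line 6. *Gnas*, the stimulatory G protein through which the *Adora2a* receptor acts, had 481 ± 43.7 CPM in HR and 513 ± 42.3 CPM in Control lines (SD, n = 4 each). *Adora1*, another adenosine receptor, had a log2 fold change of -0.32 and *Dpp4*, an adenosine deaminase binding peptidase, -0.55. *Nt5e*, which makes adenosine from AMP outside the cell, had -0.05. Among lines of a linetype 11 of these 14 genes differed by edgeR's test, which is 78.6% against 28.6% of all genes, the lowest adjusted *p* being 0.000228 for *Dpp4* by edgeR. In the cytoskeleton list *Actb* had a log2 fold change of -0.03, *Tuba1a* -0.02 and *Cdh1*, which encodes E-cadherin, -0.45. Over all 5 lists 0 genes passed an unadjusted *p* of 0.05 for HR against Control by edgeR, against 3.3% of all genes. DESeq2 called 0 in the lists and 30 over all genes.

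**Figure D5:**
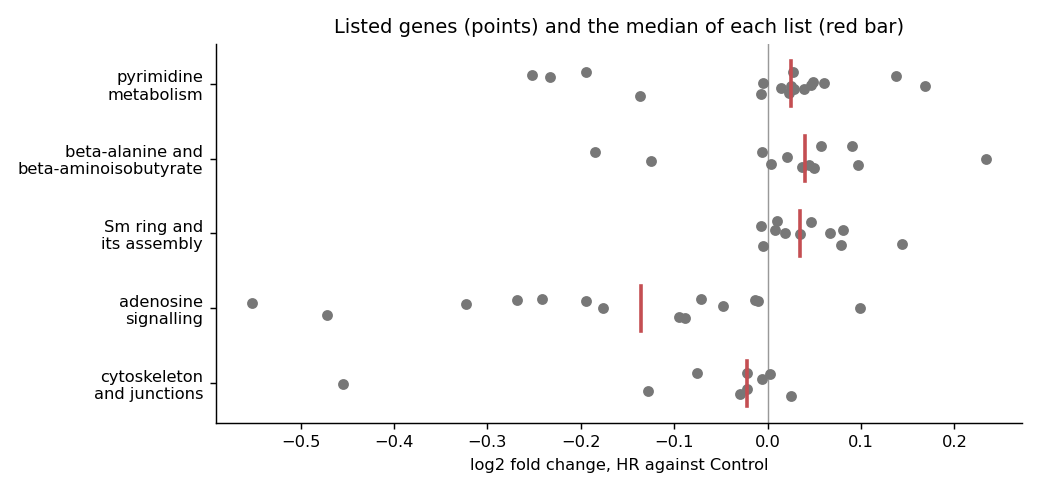
Log2 fold change of HR against Control (horizontal) for each tested gene of 5 lists (vertical, points spread for legibility), with the median of each list as a red bar. The medians lie between -0.14 for adenosine signalling and 0.04 for beta-alanine and beta-aminoisobutyrate metabolism, and 13 of 14 adenosine genes lie below 0.

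Because *Upb1* is best known from liver and kidney, the marker genes of these organs were examined. In liver markers, albumin (*Alb*) reached at most 0.128 CPM in any library, transthyretin (*Ttr*) 0.128 CPM and *Apoa2* 0.191 CPM, and *Fgb* was at 0 in all 16. *Ahsg* was at 2.17 to 4.02 CPM in every library, and *Apoa1* reached 1.27 CPM. The summed level of the 7 liver markers ranged from 5.23 to 47.9 CPM in Control and from 5.88 to 36.9 CPM in HR libraries, with *Serpina1a* alone at 1.75 to 42.3 CPM. The highest sums were in the female pools of Control line 5 and HR line 3, and the 6 libraries with most *Upb1* RNA had 5.88 to 7.80 CPM. Of the 6 kidney markers, *Umod* was at 0 in all libraries and *Slc34a1* at most 0.0843 CPM, while *Nphs1* had 2.79 to 7.31 CPM. The summed level of the kidney markers was 5.72 to 13.2 CPM in Control and 7.61 to 11.9 CPM in HR libraries. The 7 markers of nasal and vomeronasal glands varied most, from 8252 to 164700 CPM in Control and from 1318 to 150000 CPM in HR libraries. None of these sums separated the libraries as *Upb1* did. The summed markers of endothelium were at 27.2 to 46.3 CPM in the 6 libraries with most *Upb1* RNA and at 37.6 to 88.2 CPM in the rest. Those of skeletal muscle were at 3.22 to 5.27 CPM against 2.55 to 3.92 CPM. Both overlapped, and the part of tissue make-up in the *Upb1* level was not tested.

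The genes most like *Upb1* across the 16 libraries, by Pearson's r of log2 CPM among all genes tested, lay on other chromosomes. *Fam20b* on chromosome 1, which encodes a xylose kinase, had an r of 0.897. It was at 154 to 196 CPM in the 6 libraries of HR lines 6, 7 and 8 and at 93.2 to 117 CPM in the other 10. *Mgst2* on chromosome 3, a microsomal glutathione S-transferase, had 0.886. *Gucy1b2* on chromosome 14, a subunit of soluble guanylyl cyclase, had 0.864. Its ranges overlapped, with 8.04 CPM in the male library of Control line 5 and 7.53 CPM in that of HR line 8. *Lmbrd1* on chromosome 1, which acts in lysosomal cobalamin transport, had 0.835, and *Vmn1r196* on chromosome 13, a vomeronasal receptor, had 0.832. The libraries of a line are not independent and *Upb1* falls into separate ranges, so these values only describe which genes tended to be high in the same libraries.

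The likeness of the neighbours was led by other genes. For *Snrpd3* the highest r were 0.990 for *Ndufb7*, 0.987 for *Mrpl51* and 0.987 for *Timm8b*, which encode small mitochondrial proteins, and 529 genes had an r over 0.9. *Snrpd3* deviated by -1.13 and -1.05 in the female libraries of Control line 5 and HR line 3. Genes with short transcripts, a class that does not hold *Snrpd3*, were low there too. The r were not computed without these libraries, and their part in the values was not tested. *Upb1*, *Gucd1* and *Adora2a* had 0 genes with an r over 0.9 and *Specc1l* had 9. *Gucd1* was most like *D15Ertd621e*, *Btbd3* and *Wdr77*, with r of 0.886, 0.877 and 0.872. *Adora2a* was most like *Kmt2d*, *Pou2f2* and *Gsdmc4*, with 0.861, 0.860 and 0.848, and *Specc1l* like *Kat6a*, *Tecpr2* and *Kalrn*, with 0.927, 0.924 and 0.923. No gene of the region was among those most like *Upb1*.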

How the data were processed

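Directional libraries were made from VNO RNA after removal of ribosomal RNA, and single-end reads of 75 bases were aligned by the authors to GRCm38 with STAR 2.6.1d, keeping reads without mismatch and with 1 location, so reads over a base that differs from the reference are missing. The deposited counts are raw reads per gene, and the deposited RPKM are scaled by gene length and library size, in separate tables per sex. The counter, annotation and strand setting are not given in the sources used here. The 5 genes and all lists were chosen with earlier results of these data known.

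Counts were fitted in R 4.3.3 with edgeR 4.0.16 (TMM, filterByExpr with a minimum count of 10, quasi-likelihood test, Benjamini-Hochberg adjustment over all genes tested, threshold 0.05) with sex and linetype as terms, and with line nested in linetype for the line test. DESeq2 1.42.0, limma-voom (limma 3.58.1), RLE scaling, no filter, line sums, log2(RPKM + 1), log2(RPKM + 0.1) and leaving out each line were alternatives. Log2 CPM used a prior count of 2. Male and female libraries of a line correlated after group means were removed, at 0.321 to 0.708 in each of the 8 lines, and the labels give both the same line, so line also served as a replicate block. In simulated data edgeR's tests recovered 98% of 200 changed genes for HR against Control, 97.5% for sex, 91% for line and 90.5% for the interaction. In the same order, the tests called 5, 8, 14 and 8 unchanged genes. Recovery with correlated libraries of a line, as in the real data, was not tested. These shares are therefore no measure of what could be found between HR and Control lines here. The rule for names covered the 5 genes, the nearest 6 tested genes on each side within 1 Mb (5 upstream), list members by highest mean CPM or smallest *p*, and the genes of highest r. *Dpyd*, Sm genes of the low libraries and genes called in the region were named after their values were seen. Precision is limited by 4 lines per linetype, and p-values measure the spread between pools.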

Additional observations from a re-analysis of the deposited data

Results flagged for a closer look

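*Snrpd3* in the female library of Control line 5, at 15.0 CPM, lay far from the other 3 Control females, at 34.7 to 37.4 CPM, with a gap of 0.881 of the whole range. *Snrpd3* in the female library of HR line 3, at 15.8 CPM, lay far from the other 3 HR females, at 38.5 to 42.1 CPM, with a gap of 0.863. Both gaps exceed Dixon's 95% critical value for 4 samples. Over the 5 genes and 4 groups of linetype and sex, 20 such groups were examined and chance marks about 1 in 20 groups.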

How the results depend on the processing

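The log2 fold change of *Upb1* between HR and Control moved with the unit, to 1.73 on log2(RPKM + 1) and 3.79 on log2(RPKM + 0.1), scales on which a pseudocount is added to levels near 0. With each line left out in turn it was 6.01 to 6.81, and it could not be fitted in females alone, where *Upb1* did not pass the filter. The ranges over lines left out were 0.02 to 0.18 for *Gucd1*, -0.08 to 0.21 for *Snrpd3*, -0.15 to 0.33 for *Adora2a* and -0.01 to 0.06 for *Specc1l*. Among neighbours tested between lines of a linetype, DESeq2 called 1 against 0 by edgeR, and edgeR called 0 with any line left out. Among the 30 genes near *Upb1*, DESeq2 called 12 between lines against 6, and 3 to 8 were called with a line left out, the lowest without HR line 3. The count for HR against Control stayed 0 near *Upb1* and in the lists under each alternative run, as did the counts of the 5 genes called for sex and for the interaction, with line as a replicate block included, where 0 were called. Leaving out the female libraries of Control line 5 and HR line 3, chosen after seeing the data, changed no count of calls by more than 1.5 times. Over all genes, 4 were called for HR against Control by edgeR, 30 by DESeq2, 0 by line sums, 0 by limma-voom and 1 to 17 with a line left out. For sex, 31 were called by edgeR, 90 with the block, 177 by DESeq2, 19 with no filter and 13 to 25 with a line left out. Between lines, 4714 were called by edgeR, 7274 by DESeq2 and 3076 to 4952 with a line left out. Counts of 1 to 13 for *Upb1* in 10 libraries and of 5 to 60 for *Adora2a* limit what their levels there can show.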
